A study of Homo sapiens with 12 samples.

Results

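Chromatin accessibility was compared between MOLM13 cells treated with the menin inhibitor VTP50469 (500 nM, 16 h) and control MOLM13 cells. MOLM13 is a human acute myeloid leukemia (AML) cell line that carries the MLL-AF9 (KMT2A::MLLT3) fusion and a FLT3 internal tandem duplication, and control and treated cells share both lesions. The comparison used 4 of the 12 ATAC-Seq libraries of the series, 2 control and 2 treated, and each library is represented by its list of called peaks. Both arms came from one cell line, the cells were cryopreserved before nuclei were tagmented with Tn5, and the labels do not name the vehicle of the control cells. Members were the peaks on chromosomes 1 to 22 of these 4 libraries, 362452 of the 370382 MOLM13 peaks and of 1200433 peaks in all, which merged into 166297 regions wherever peaks overlapped by at least 1 bp.

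Menin is a scaffold protein that tethers MLL1 and MLL fusion proteins (MLL-FP) to chromatin, and inhibitors such as VTP50469 occupy the pocket that holds MLL1. MLL-FP sustain a program of self-renewal genes, among them MEIS1 and the HOXA genes, and menin inhibition is known to relieve the block to myeloid differentiation in AML with MLL1 rearrangement (MLL1-r). In ATAC-Seq, Tn5 inserts adapters where DNA is not covered by nucleosomes, so a peak marks an accessible promoter or a distal regulatory element.

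Peaks numbered 77753 and 90270 in the controls against 93598 and 100831 after treatment, so the groups did not overlap in peak number. Read totals are not part of peak lists, and the depth is therefore unknown, but the reads under each summit could be recovered from the fold enrichment and p-value of at least 99.99% of peaks. The median peak rested on 9 or 10 reads and the weakest on 4, which makes a single call near the threshold imprecise. The lowest background level used by the peak caller, which follows depth, was 0.435 and 0.483 reads in the controls and 0.541 and 0.514 reads in the treated libraries. The covered length was 19.6 and 22.6 Mb against 23.6 and 24.8 Mb, and the share of peaks at promoters was 21.2% and 18.8% against 18.2% and 16.9%. For each of these 4 measures the exact two-sided permutation test gave p = 0.3333, the smallest that 2 libraries against 2 allow. Nothing in the labels says that same-condition libraries came from separate cultures, so p-values here measure the spread between these libraries only.

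Of 8 AML cell genes in a marker list, 6 had a called promoter in all 4 libraries (FLT3, MPO, SPI1, CEBPA, CD44 and PTPRC), while CD33 and CSF3R had one in 2 libraries each. A promoter called in all 4 libraries was held by 1 of 8 T cell markers (CD8A), 1 of 7 B cell markers (CD22), 0 of 8 erythroid and 0 of 5 epithelial markers. A promoter called in some but not all libraries was held by 4 T cell, 4 B cell, 1 erythroid and 1 epithelial marker.

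The promoters on which the results turn are shown first, as the RefSeq sequence of GRCh38.p14 from 250 bases before to 30 bases after the start site, read 5′ to 3′ on the strand of the gene. SCN2A (chr2:165239164-165239443, plus strand) is shown for a peak found in both controls only. P2RY12 (chr3:151384724-151385003, minus strand), CBLN2 (chr18:72544313-72544592, minus strand) and S100A9 (chr1:153357604-153357883, plus strand) are shown for a peak found in both treated libraries only. In these 4 sequences capitals mark the bases inside the called region. KCNN3 (chr1:154870252-154870531, minus strand), ITGAM (chr16:31259725-31260004, plus strand) and MEIS1 (chr2:66434875-66435154, plus strand) lay wholly inside a region called in all 4 libraries. In those, capitals mark matches to the short motif words described next.
SCN2A: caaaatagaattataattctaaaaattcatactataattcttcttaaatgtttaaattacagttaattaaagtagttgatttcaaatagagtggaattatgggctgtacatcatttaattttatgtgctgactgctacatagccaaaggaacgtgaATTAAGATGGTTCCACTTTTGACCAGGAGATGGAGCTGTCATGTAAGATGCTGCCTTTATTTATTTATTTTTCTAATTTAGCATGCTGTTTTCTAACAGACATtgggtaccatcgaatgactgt
P2RY12: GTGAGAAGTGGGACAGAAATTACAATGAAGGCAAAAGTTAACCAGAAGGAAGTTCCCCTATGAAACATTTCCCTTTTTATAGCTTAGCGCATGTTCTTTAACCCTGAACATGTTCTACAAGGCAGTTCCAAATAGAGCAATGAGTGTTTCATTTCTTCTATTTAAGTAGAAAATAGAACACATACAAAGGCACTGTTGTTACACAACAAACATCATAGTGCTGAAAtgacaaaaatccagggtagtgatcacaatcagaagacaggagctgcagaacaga
CBLN2: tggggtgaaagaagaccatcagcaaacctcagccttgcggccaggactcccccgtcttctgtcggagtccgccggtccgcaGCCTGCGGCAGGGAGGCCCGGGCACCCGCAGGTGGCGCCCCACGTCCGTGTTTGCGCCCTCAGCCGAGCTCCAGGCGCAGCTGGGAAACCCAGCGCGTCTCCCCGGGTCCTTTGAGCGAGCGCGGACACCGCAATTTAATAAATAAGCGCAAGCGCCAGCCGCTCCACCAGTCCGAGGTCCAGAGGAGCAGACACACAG
S100A9: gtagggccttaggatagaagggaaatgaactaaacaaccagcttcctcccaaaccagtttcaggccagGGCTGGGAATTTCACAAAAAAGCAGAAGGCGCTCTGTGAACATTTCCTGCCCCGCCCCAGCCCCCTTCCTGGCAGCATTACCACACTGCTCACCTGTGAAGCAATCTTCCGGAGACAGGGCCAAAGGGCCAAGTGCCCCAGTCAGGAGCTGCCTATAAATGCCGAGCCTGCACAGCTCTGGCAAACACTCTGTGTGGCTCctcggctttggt
KCNN3: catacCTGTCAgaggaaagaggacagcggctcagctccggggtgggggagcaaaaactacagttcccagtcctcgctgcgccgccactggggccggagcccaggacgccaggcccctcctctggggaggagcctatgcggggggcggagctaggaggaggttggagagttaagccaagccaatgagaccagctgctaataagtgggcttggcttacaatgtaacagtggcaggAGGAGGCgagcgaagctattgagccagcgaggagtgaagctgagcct
ITGAM: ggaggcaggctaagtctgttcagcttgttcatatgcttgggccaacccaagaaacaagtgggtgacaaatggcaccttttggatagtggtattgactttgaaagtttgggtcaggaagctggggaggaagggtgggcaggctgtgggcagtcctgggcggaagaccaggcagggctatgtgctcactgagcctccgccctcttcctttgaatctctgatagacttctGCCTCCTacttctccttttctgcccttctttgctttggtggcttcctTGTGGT
MEIS1: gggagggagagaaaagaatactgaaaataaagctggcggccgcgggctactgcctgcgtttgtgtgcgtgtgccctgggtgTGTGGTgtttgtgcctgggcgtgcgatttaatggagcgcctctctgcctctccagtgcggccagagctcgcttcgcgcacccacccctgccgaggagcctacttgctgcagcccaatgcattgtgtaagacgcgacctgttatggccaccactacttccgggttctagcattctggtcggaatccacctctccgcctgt

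In all, 13 words that stand for binding motifs were searched on both strands of the 33725 RefSeq promoter windows of 300 bases on chromosomes 1 to 22. The RUNX word TGTGGT began 169 bases before the start site of MEIS1 and 24 bases after that of ITGAM, and its reverse complement ACCACA began 103 bases before that of S100A9. The word was present in 13.1% of all windows, and it stood in 9.03% of the 13118 windows that held at least 50 bp of a region called in all 4 libraries. Among windows without such a region it stood in 24 of 125 (19.2%) that held a region called only in the treated libraries and in 8 of 70 (11.4%) that held a region called only in the controls. For comparison, it stood in 40 of 344 (11.6%) that held a region called in 1 control and 1 treated library. The MEIS word TGACAG, present in 15.8% of all windows, was found as CTGTCA 59 bases before the start site of SCN2A and 245 bases before that of KCNN3. It stood in 17.1% of windows with a control-only region and 14.4% of those with a treated-only region. The PU.1 word GAGGAAGT stood in 1 of 70 and 5 of 125 of these windows and in 2.58% of all windows, the MYB word AACNGTC in 2 and 6 and in 6.70%, and the HOXA9-MEIS1 word TGATTNAT in 4 and 2 and in 2.83%. The CTCF word AGGNGGC stood in 40.0% and 39.2% of them and in 35.8% of all windows. Of the more general motifs, the CEBP word TTGCNNAA stood in 11.4% of control-only and 7.20% of treated-only windows (10.5% of all), the AP-1 word TGANTCA in 7.14% and 8.80% (7.67%), the GATA word AGATAA in 7 of 70 and 9.60% (10.4%), and the IRF word GAAANNGAA in 7.14% and 9.60% (8.09%). The E-box CACGTG stood in none of the control-only and 10 of the treated-only windows (7.18% of all), the NF-kappaB word GGANTTTCC in none and 3 (1.66%), and the NRF1 word GCGCATGCG in none and 1 (1.92%). Matches of different words may overlap. The groups of windows also differed in base composition, with a median GC content of 62.7% in control-only, 57.3% in treated-only and 66.3% in all-4 windows. These shares are descriptions of promoter sequence only, since most regions that changed in presence lay outside promoters.

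Lost regions, meaning those with a peak in each control but no treated library, numbered 2161, and gained regions, with a peak in each treated library but no control, numbered 5325. These were 1.30% and 3.20% of all merged regions. A further 40663 regions (24.5%) were called in all 4 libraries, 90310 in 1 library, 15155 in 3, and 12683 in 1 control and 1 treated library, a pattern that carries no direction. Gained regions made up 71.1% of lost and gained regions together. When each library was limited to its 77753 strongest peaks, the number in the smallest library, 2482 regions were lost and 3652 gained, and the gained share was 59.5%. With only peaks of -log10 q of at least 5, 934 regions were lost and 3147 gained. Leaving out a library loosened the definition, because presence then had to hold in a single library of that group. Without control 1 the counts were 24396 lost and 8695 gained, without control 2 they were 17874 and 11912, without VTP50469 1 they were 4158 and 34404, and without VTP50469 2 they were 5892 and 31706. Presence was not tested region by region, since 2 libraries against 2 cannot pass a threshold.

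**Figure D1:**
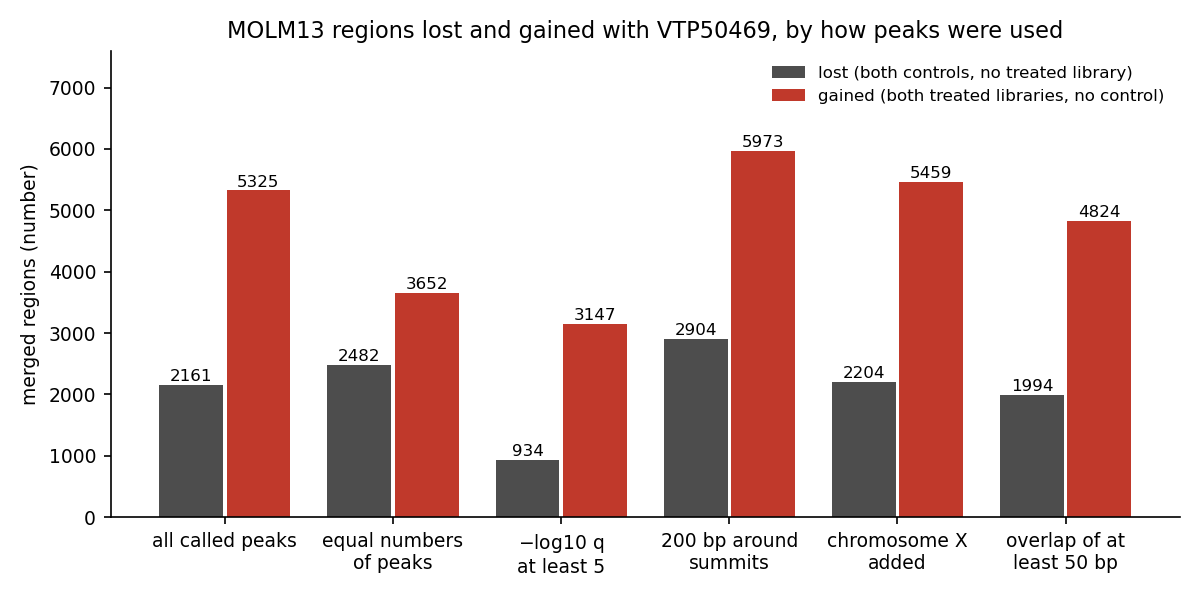
Number of merged MOLM13 regions (vertical axis) called in both controls and no treated library (lost, grey bars) or in both treated libraries and no control (gained, red bars), for each way of using the peaks. Gained regions outnumbered lost regions in each setting shown, and the 2 bars stood closest with equal numbers of peaks (2482 and 3652).

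Lost and gained regions were mostly distal and weak. Of lost regions 10.8% lay within 1 kb of a start site, 55.7% elsewhere in a gene body and 33.5% between genes, and of gained regions 7.81%, 55.2% and 37.0%. The promoter share was 8.55% for regions called in 1 control and 1 treated library and 28.4% for regions called in all 4. The median of the strongest -log10 q in a region was 4.72 for lost, 5.001 for gained, 4.72 for 1 control with 1 treated, and 15.7 for regions in all 4 libraries. Lost and gained regions were thus called about as strongly as regions whose presence had no direction. The median width was 176 bp for lost and 187 bp for gained regions, against 492 bp for regions in all 4. By chromosome, the lost share ranged from 1.16% (chromosome 16) to 1.59% (chromosome 19) and the gained share from 2.50% (chromosome 19) to 3.93% (chromosome 14).

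At promoters, 233 regions were lost and 416 gained. Each region was assigned to the closest protein-coding start site within 1 kb, or to a lncRNA where there was none. On that basis, none of the lost promoter regions belonged to the 241 genes on the 23 lists examined. Of the gained promoter regions 7 did, at CCND2, IFIT1, PAX5, PRTN3 and S100A9, among others. The share of all promoter regions at these genes was not computed, so no contrast is drawn from these counts. The 5 lost promoter regions with the strongest calls lay at LOC124901028, LOC124903977, LOC105378724, SOX7 and SCN2A. The SCN2A region, at a neuronal sodium channel gene, had fold enrichments of 6.27 and 6.07 in the controls and no peak in either treated library. The region at SOX7, which encodes a SOX-family transcription factor, had 4.90 and 5.03 in the controls. The 5 strongest gained promoter regions lay at UPF3A, CBLN2, P2RY12, BNIP2 and SPECC1. The UPF3A region, at a gene of nonsense-mediated mRNA decay, had fold enrichments of 5.45 and 5.93 in the treated libraries and no peak in the controls. At P2RY12, which encodes an ADP receptor of platelets and microglia, the treated values were 7.14 and 8.57, and at CBLN2, a cerebellin gene, they were 7.14 and 7.92. The regions at UPF3A, P2RY12 and BNIP2 overlapped peaks in all 4 libraries of MV4-11, the other MLL1-r line of the series, treated or not.

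MEIS1, the TALE homeobox partner of HOXA9 and a leading MLL-FP target, held 23 called regions in its gene body with 5 kb on each side. Of these, 8 were called in all 4 libraries, 1 was lost and none was gained. Over all merged regions 1.30% were lost and 3.20% were gained. The lost region (chr2:66444017-66444338), 9.05 kb downstream of the start site in the gene body, had fold enrichments of 4.57 and 4.92 in the controls, and the same bases were called in all 4 MV4-11 libraries. The promoter region (chr2:66434784-66435488) had fold enrichments of 9.36 and 6.17 in the controls and 6.11 and 6.56 in the treated libraries. Control 1 stood above the other 3 libraries, which lay close together, and the groups overlapped. The quantile-normalized log2 shift was -0.36 ± 0.28 (SE, limma, unadjusted p = 0.212, adjusted p = 0.942), and without control 1 it was 0.0056. At a pair of distal regions the treated libraries lay above the controls. Of all regions called in the 4 libraries, 24.6% lay above in this way and 9.65% lay below. The region 46.2 kb downstream of the start site had 6.76 and 5.95 in the controls and 7.79 and 12.2 in the treated libraries, and the region at 134.1 kb had 8.05 and 8.89 against 10.8 and 15.7. Their shifts of 0.51 ± 0.26 and 0.50 ± 0.24 (SE) did not pass the test (limma, adjusted p = 0.873 for both).

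**Figure D2:**
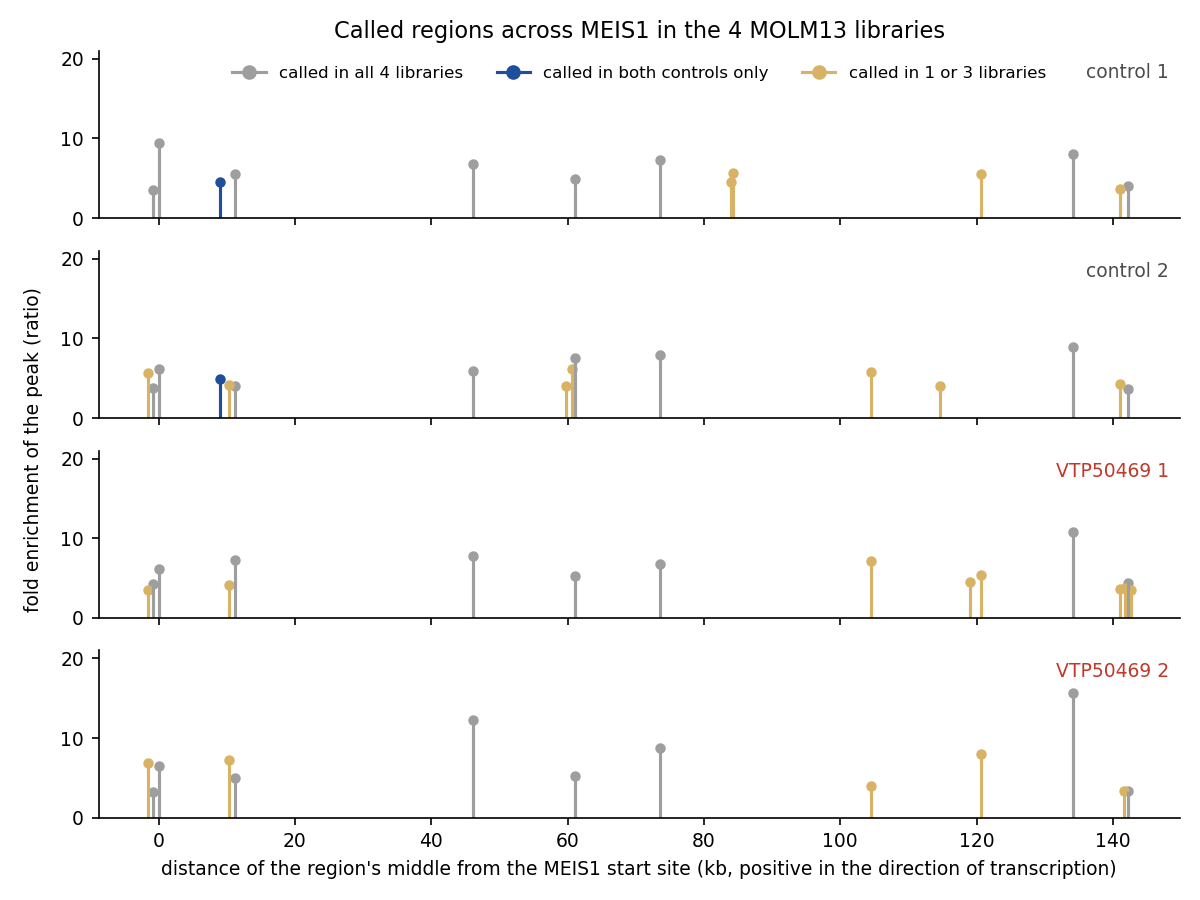
Fold enrichment of each called peak (vertical axis, ratio) against its distance from the MEIS1 start site (horizontal axis, kb), 1 panel per MOLM13 library. Grey marks regions called in all 4 libraries, blue the lost region and ochre regions called in 1 or 3 libraries; the blue region appears at 4.57 and 4.92 in the control panels only.

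The 22 genes of the MLL1 and MLL fusion target list held 558 regions, of which 10 were lost (1.79%, against 1.30% of all regions) and 13 were gained (2.33%, against 3.20%). Both shares are near the background, and all 23 regions lay more than 5 kb from the start sites of these genes. Lost regions were in MEIS1, MEF2C, CDK6, SENP6, MYC, EYA1, BCL2, CPEB2 and ARID1B. Gained regions were in PBX3, MEF2C, CDK6, JMJD1C, SENP6, TCF4, EYA1, RUNX1, SATB1 and ARID1B, so that 5 genes held both. With equal numbers of peaks per library the list had 8 lost and 7 gained regions. A lost region just beyond the end of BCL2, the anti-apoptotic gene had fold enrichments of 7.63 and 5.26 in the controls. In CDK6, the G1 kinase, a lost region (chr7:92614742-92614830) with 5.16 and 4.99 in the controls overlapped peaks of both MV4-11 controls but of no treated MV4-11 library. When peaks of both lines were merged, however, the wider CDK6 region also held a peak of 3.58 in the treated MV4-11 library 1.

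At the start sites of the same genes, 19 of 22 promoters were called in all 4 libraries, EYA1 and RUNX2 in 1 library each and PBX3 in none at the start site used. In 5 of the 19 both treated libraries had a higher fold enrichment than both controls, in 2 both were lower and in 12 the groups overlapped. Over all 40663 regions called in all 4 libraries the corresponding shares were 24.6% higher and 9.65% lower. FLT3, the receptor tyrosine kinase mutated in this line, had 11.0 and 15.3 in the controls and 15.7 and 17.4 in the treated libraries. MBNL1, an RNA-binding splicing regulator, had 6.31 and 6.14 against 8.31 and 9.96. BMI1, a Polycomb gene, had 4.09 and 4.43 against 5.43 and 5.61, and CDK6 and LAMP5 also had both treated values above the controls. The treated values were lower at MYC, with 8.28 and 6.63 against 6.42 and 5.96, and at IGF2BP2, an mRNA-binding protein gene, with 7.60 and 5.87 against 5.55 and 4.46. The promoter of MYB, a transcription factor of progenitor cells, had 8.08 and 7.59 against 7.62 and 8.04 and overlapped. None of these promoters passed the test (limma, smallest adjusted p = 0.878, at MBNL1 and IGF2BP2). The median promoter shift of the list was -0.017, beside -0.022 for all promoter regions called in all 4 libraries and -0.0038 for all tested regions.

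**Figure D3:**
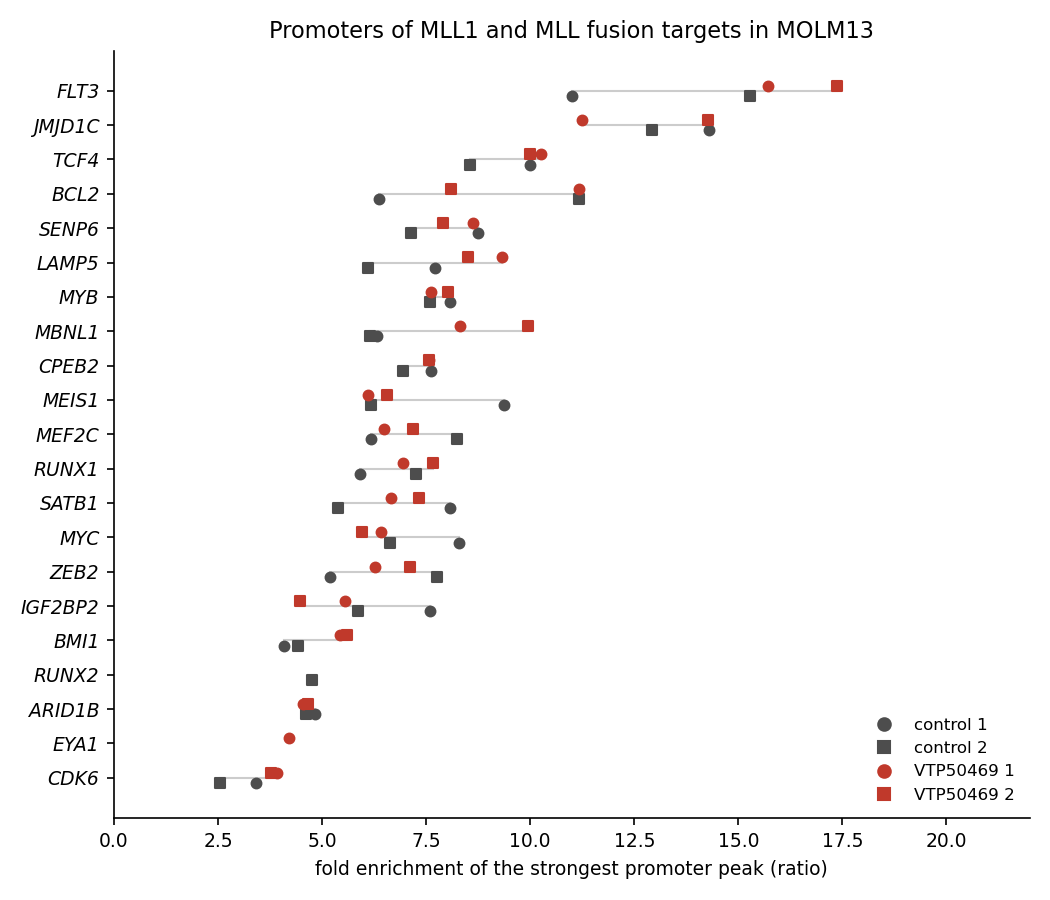
Fold enrichment of the strongest promoter peak (horizontal axis, ratio) for 21 MLL1 and MLL fusion targets with a called promoter (rows), in control (grey) and treated (red) libraries, replicate 1 as circles and replicate 2 as squares. Red points lie beyond both grey points at 5 genes on the high side (FLT3, MBNL1, BMI1, CDK6 and LAMP5) and at 2 on the low side (MYC and IGF2BP2).

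Of the 134 regions of the list called in all 4 libraries, 6 were higher (4.48%) and 2 lower (1.49%) at an unadjusted limma p under 0.05, beside 3.06% and 2.77% of all tested regions. None had an adjusted p below 0.831, and none lay at the start site used for a listed gene. The start site used for JMJD1C (chr10:63269243) was internal to the gene, however. A lower region (chr10:63520672-63521278) lay just inside the upstream end of JMJD1C, at the promoter of REEP3. Its fold enrichments were 7.52 and 9.05 in the controls and 5.03 and 4.78 in the treated libraries (limma, unadjusted p = 0.0044, adjusted p = 0.831). Another region in JMJD1C (chr10:63421501-63421953) was higher, with 6.715 and 7.48 in the controls and 11.35 and 12.5 in the treated libraries (limma, unadjusted p = 0.018, adjusted p = 0.831). The region in RUNX2 (chr6:45436717-45437212), 108.6 kb downstream of the start site, had fold enrichments of 4.45 and 4.55 in the controls and 8.73 and 12.8 in the treated libraries. In MYB a region 13.97 kb downstream had 4.21 and 5.37 against 6.44 and 9.36, and in MBNL1 a region 108.0 kb downstream had 7.17 and 7.56 against 15.5 and 12.4. In SENP6, a SUMO protease gene, a region 18.7 kb downstream had 6.06 and 7.67 in the controls and 4.99 and 4.65 in the treated libraries. Groups did not overlap in the regions named in JMJD1C, RUNX2, MYB, MBNL1 and SENP6. All were picked by a small p on these same values, so the lack of overlap adds no support. Over all 40663 tested regions, both treated values were above both controls in 24.6% and below them in 9.65%.

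The HOXA cluster, whose posterior genes are the best known targets of MLL-FP, held 25 regions, of which 8 were called in all 4 libraries, 1 was lost and none was gained. The lost region (chr7:27168359-27168447) lay 2.87 kb upstream of the HOXA9 start site, near that of HOXA10-AS, and was weak, with fold enrichments of 3.28 and 3.56 in the controls. Promoters called in all 4 libraries included those of HOXA4, HOXA10, HOXA11 and HOXA13. The HOXA9 promoter was called in control 2 (3.98) and in VTP50469 2 (4.28) only, and those of HOXA6 and HOXA7 in no library. At HOXA10 the controls had 4.31 and 6.54 and the treated libraries 7.09 and 9.54, with a shift of 0.54 ± 0.26 (SE, limma, adjusted p = 0.869). At HOXA13 the controls had 5.20 and 4.29 and the treated libraries 3.60 and 2.91, with a shift of -0.57 ± 0.25 (SE, limma, adjusted p = 0.843). The groups did not overlap at either gene, and they lay in opposite order. Over all regions called in the 4 libraries, both treated values were above both controls in 24.6% and below them in 9.65%. The HOXB cluster, the second group of homeobox genes examined, had 8 regions, none lost or gained, and no promoter called in all 4 libraries.

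Genes of monocyte and granulocyte differentiation had 147 regions, of which 2 were lost (1.36%) and 6 were gained (4.08%), beside 1.30% and 3.20% of all regions. The gained regions were in S100A9, MNDA, FCN1, CEBPD and CD36, and with equal numbers of peaks 5 regions were gained and 1 was lost. The S100A9 region, at the start site of a calprotectin subunit gene of myeloid cells, had fold enrichments of 3.50 and 4.19 in the treated libraries and no peak in the controls. In CD36, a scavenger receptor of monocytes, a region 40.9 kb downstream of the start site had 6.64 and 5.31 in the treated libraries. The lost regions lay near LY96, a co-receptor of TLR4, and in TREM1, an activating receptor of myeloid cells. Of the 24 promoters, 13 were called in all 4 libraries, 6 in some and 5 in none. The numbers called per library were 14 and 14 in the controls and 17 and 17 in the treated libraries. Calls were also more numerous over all merged regions, with 71352 and 84407 in the controls and 87775 and 95231 in the treated libraries.

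Both treated libraries were above both controls at 4 of these 13 promoters (ITGAM, LYZ, CD68 and CEBPE) and below them at 1 (CD86), beside 24.6% and 9.65% of all regions called in the 4 libraries. At ITGAM, which encodes CD11b, the controls had 5.17 and 6.47 and the treated libraries 7.14 and 14.6. The shift was 0.73 ± 0.29 (SE, limma, unadjusted p = 0.0271, adjusted p = 0.831), and without VTP50469 2 it was 0.31. At LYZ, the lysozyme gene, the values were 8.21 and 8.34 against 9.62 and 12.4, and at CD68, a lysosomal protein of macrophages, 6.27 and 5.995 against 7.06 and 7.70. CD86, a costimulatory ligand, had 7.87 and 7.48 against 6.11 and 6.29. High values of VTP50469 2 recurred in this list, with 19.1 at FPR1, 17.6 at LY96 and 15.8 at TREM1, where the other treated library lay among the controls. That library had the highest fold enrichment of the 4 in 46.1% of the regions called in all, with a median of 8.55 against 6.99, 7.69 and 7.36 in the others. The median promoter shift of the list after normalization was 0.202, and the part of library differences in it was not tested.

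Core myeloid transcription factor genes had 121 regions, with 2 lost (1.65%) and 6 gained (4.96%), beside 1.30% and 3.20% of all regions. With equal numbers of peaks 1 was lost and 6 were gained. Both lost regions were in ELF1, an ETS factor gene, and the gained regions were in CEBPB, GFI1, IKZF1, ETV6 and FLI1. In FLI1, a factor of hematopoietic enhancers, a region 9.67 kb downstream of the start site had fold enrichments of 3.51 and 4.18 in the treated libraries. The promoter of SPI1, which encodes PU.1, had 5.71 and 4.59 in the controls and 7.36 and 7.66 in the treated libraries, a shift of 0.46 ± 0.25 (SE, limma, adjusted p = 0.886). The promoter of CEBPA, the granulocyte lineage factor, had 7.60 and 7.09 against 9.29 and 8.88. Treated values were above the controls at 4 of 9 promoters called in all libraries and below them at none, beside 24.6% and 9.65% of all such regions. However, the median normalized shift over those 9 promoters was -0.0036, and at CBFB, 1 of the 4, it was -0.0025.

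**Figure D4:**
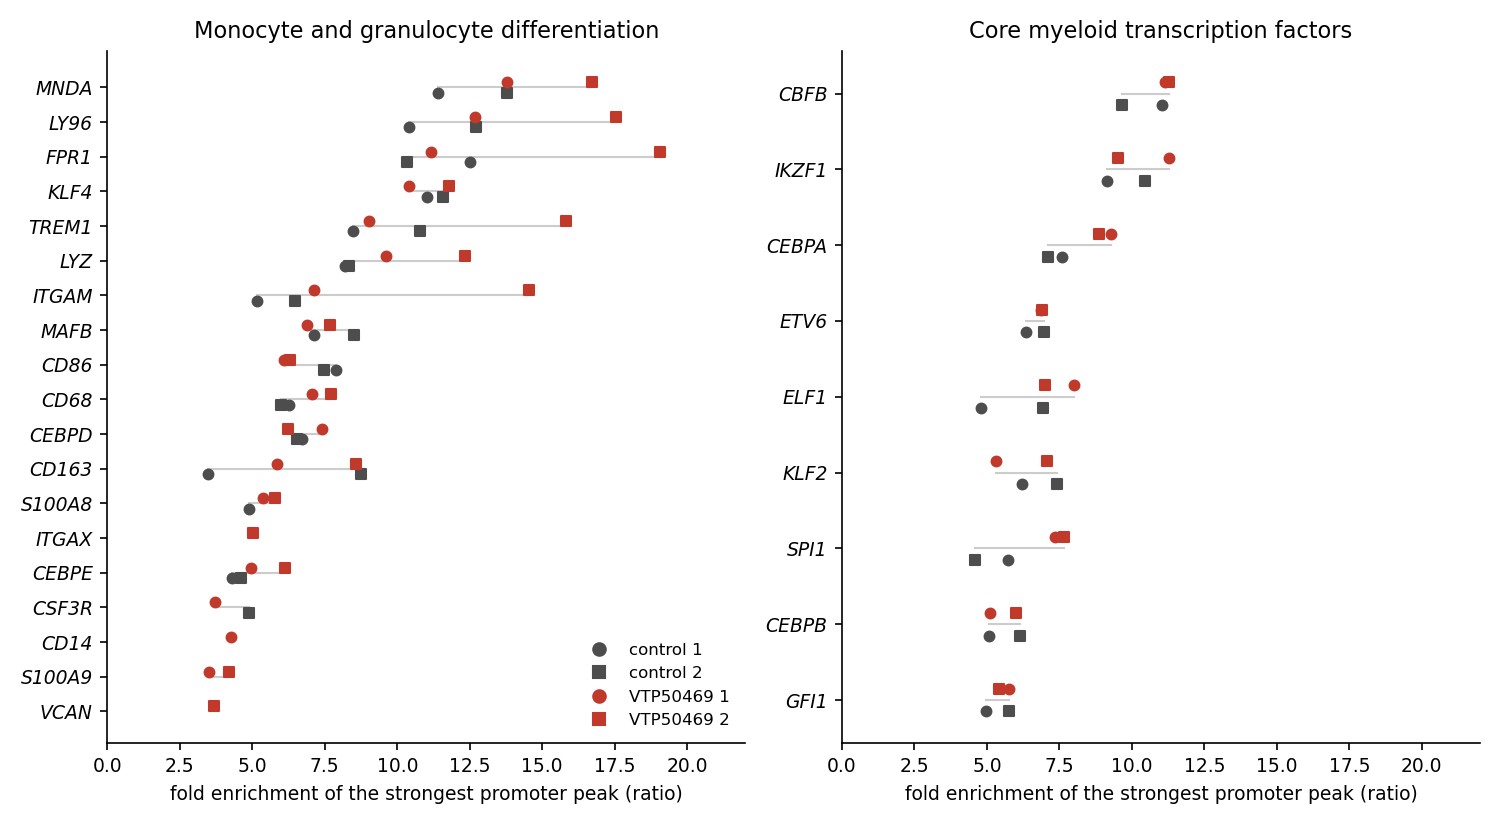
Fold enrichment of the strongest promoter peak (horizontal axis, ratio) for genes of monocyte and granulocyte differentiation (left) and core myeloid transcription factors (right), in control (grey) and treated (red) libraries, replicate 1 as circles and replicate 2 as squares. The red square of VTP50469 2 stands far to the right at FPR1 (19.1), LY96 (17.6), TREM1 (15.8) and ITGAM (14.6), while at SPI1 and CEBPA both red points lie beyond the grey points.

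Among the genes of epigenetic co-dependencies of menin inhibition, which include BRD3 of the BET family, the acetyltransferase genes EP300, CREBBP and KAT6A, and KDM1A (LSD1), the promoters of these 5 were called in all 4 libraries. The treated values were below the controls at BRD3 (8.002 and 9.41 against 6.84 and 7.25). They were above the controls at EP300 (9.35 and 7.36 against 11.3 and 10.5) and at CREBBP (12.8 and 10.4 against 13.5 and 16.6). Of all regions called in the 4 libraries, 24.6% lay above in this way and 9.65% below. The median normalized promoter shift of the list was -0.190. Of the 65 regions of the list none was lost and 2 were gained (3.08%), beside 1.30% and 3.20% of all regions. A gained region in KAT6A had 5.19 and 3.96 in the treated libraries. The promoters of the 17 menin, MLL1 complex and fusion partner genes were all called in all 4 libraries, and 3 of them, those of KMT2A, MLLT10 and AFF1, had both treated values above the controls while none had both below, again beside 24.6% and 9.65% of all such regions. At AFF1 the normalized shift was -0.047. The only lost region of that list (0.826% of its 121 regions) lay in AFF1, and none was gained. Among the 147 regions of 12 stem and progenitor genes, 3 were lost (2.04%, in MSI2 and MECOM) and 1 was gained (0.68%, in KIT), beside 1.30% and 3.20% of all regions. The KIT promoter, at the stem cell factor receptor gene, had 6.999 and 6.36 against 4.69 and 5.10, a shift of -0.54 ± 0.24 (SE, limma, unadjusted p = 0.0436, adjusted p = 0.843).

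The counts of the other lists are small and stand beside 1.30% lost and 3.20% gained of all regions. The 12 G1 regulators had 108 regions with 2 lost (1.85%, in CDK6 and RB1) and 4 gained (3.70%). A gained region lay at the start site of CCND2, the cyclin D2 gene, with fold enrichments of 5.56 and 4.43 in the treated libraries, next to a further gained region with 3.44 and 3.62. The BCL2 family had 85 regions with 3 lost (3.53%), in BCL2, BBC3 and upstream of BID, and 1 gained (1.18%), in BID. BBC3 and BID both encode pro-apoptotic BH3 proteins. The FLT3 feedback genes had 47 regions with none lost and 2 gained (4.26%, near SPRED1 and PIM1). The primary granule genes had 16 with none lost and 1 gained (6.25%), at the promoter of PRTN3, the proteinase 3 gene. AP-1 and immediate early genes had 45 regions with none lost or gained, and 10 of their 11 promoters were called in all 4 libraries. Lists of MYC targets, interferon response and TNF response had none lost and 1 gained each, of 38, 31 and 29 regions (2.63%, 3.23% and 3.45%). The interferon gene was IFIT1, whose promoter had 5.60 and 4.63 in the treated libraries only. Wnt targets had 1 lost and 1 gained of 60 (1.67% each), both in TCF7L2. Housekeeping genes had none lost and 1 gained of 33 regions (3.03%), in TBP, beside 9 promoters called in all 4 libraries.

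Of the marker lists, the AML markers had none lost and 2 gained of 60 regions (3.33%), both in PTPRC, the CD45 gene. Over all regions 1.30% were lost and 3.20% gained. B cell markers had none lost and 3 gained of 68 (4.41%), in PAX5 and EBF1, and T cell markers none lost and 1 gained of 39 (2.56%), near CD3D. The PAX5 promoter region, at a B cell commitment factor, had 4.78 and 4.82 in the treated libraries only and overlapped peaks in all 4 MV4-11 libraries. Erythroid markers had 1 lost (12.5%) and none gained of 8 regions, and epithelial markers none lost and 1 gained of 21 (4.76%).

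By locus, 1355 of 19126 protein-coding genes held a lost region and 2626 held a gained region. DACH1, a transcription factor gene of 429.2 kb, held the most lost regions, 4 of its 64, beside 2 gained. In all, 11 genes held at least 3 lost regions and 109 held at least 3 gained regions. PTCH1, the hedgehog receptor gene, had 3 lost regions of 8, and was the only gene with at least 3 lost and none gained. At least 3 gained and none lost were held by 69 genes. Over all regions 1.30% were lost and 3.20% were gained. ASAP1, NSMCE2 and RIMS2 held the most gained regions, 6 each of 62, 44 and 116, with none lost. These 3 genes lie on chromosome 8, which held 15639 merged regions, beside 14146 on chromosome 1, and of whose regions 2.85% were gained.

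The strength of peaks was tested in the 40663 regions called in all 4 libraries, on log2 fold enrichment after quantile normalization. No region passed in either direction (limma, smallest adjusted p = 0.831). At an unadjusted p under 0.05 there were 1125 lower regions (2.77%) and 1243 higher regions (3.06%), or 5.82% together. With reads recovered under the summits in place of fold enrichment, none passed either, and 1792 lower and 912 higher regions had an unadjusted p under 0.05, so the split of 52.5% higher became 33.7% higher. Of 11526 promoter regions, 149 were lower and 86 higher at that level, and of 29137 regions outside promoters 976 were lower and 1157 higher. The promoter with the lowest value was that of SLC37A3, of the sugar phosphate exchanger family (chr7:140398402-140398661), with fold enrichments of 12.6 and 11.6 in the controls and 4.67 and 5.86 in the treated libraries. Its shift was -1.31 ± 0.24 (SE), and it was lower in both treated libraries (limma, unadjusted p = 1.4e-04, adjusted p = 0.831). It was called in 1 MV4-11 library and in all 4 OCI-AML3 libraries. The promoters of SAMD4A (8.44 and 9.13 against 5.15 and 4.77) and LOC100288069 followed. So did those of RPS6KA1, a kinase gene of the MAPK pathway (10.3 and 9.90 against 5.51 and 6.60), and REEP3 (7.52 and 9.05 against 5.03 and 4.78). The REEP3 region also lay just inside the upstream end of JMJD1C, a gene of the MLL1 and MLL fusion target list. Another region in JMJD1C was higher at an unadjusted p under 0.05. On the high side, KCNN3, a calcium-activated potassium channel gene, had 6.69 and 5.20 in the controls and 12.3 and 12.7 in the treated libraries, a shift of 0.97 ± 0.25 (SE, limma, adjusted p = 0.831). NEK1, a kinase gene, had 4.17 and 6.13 against 9.07 and 10.7. MIGA1, a mitochondrial fusion gene, had 6.84 and 9.96 against 15.1 and 16.8, and IFITM2, an interferon-induced antiviral gene, 5.06 and 4.55 against 7.79 and 9.93. In each of these promoters the groups did not overlap, but they were picked by p on the same values, so this adds no support. Over all tested regions both treated values were above both controls in 24.6% and below them in 9.65%.

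**Figure D5:**
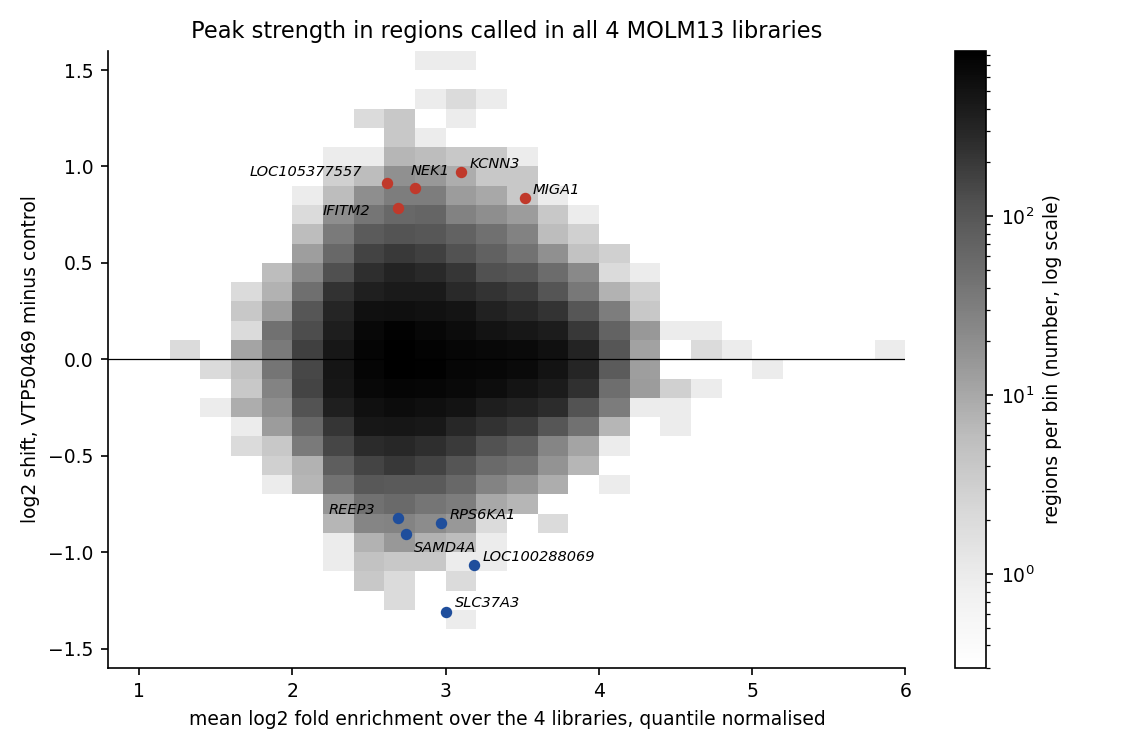
Log2 shift of fold enrichment, VTP50469 minus control (vertical axis), against the mean log2 fold enrichment (horizontal axis) for 40663 regions called in all 4 libraries, with bins shaded by their number of regions on a log scale. The 5 promoters with the smallest p in each direction are marked (blue lower, red higher), from -1.31 at SLC37A3 to 0.97 at KCNN3, and the region outside promoters with the smallest p has a shift of 1.54.

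The regions with the highest mean fold enrichment lay outside promoters. The strongest, between genes on chromosome 17 (chr17:22524407-22524528), had fold enrichments of 61.4 and 64.2 in the controls and 64.5 and 62.6 in the treated libraries. The next, also between genes and nearest to PROS1, had 34.2 and 32.5 against 32.7 and 33.1. At both the groups overlapped. The other 3 lay in KHDRBS2, PDZRN4 and KIF5C, and of these only KHDRBS2 had both treated values above the controls (28.6 and 30.3 against 31.2 and 33.4).

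MOLM13 was compared with MV4-11, which carries MLL-AF4, to learn whether any change was particular to 1 line. Of lost MOLM13 regions 74.5% overlapped a peak in at least 1 MV4-11 library and 40.1% one in OCI-AML3, which has mutant NPM1 and no MLL1-r, and of gained regions 81.4% and 42.9%. The same shares were 62.1% and 41.2% of all regions and 79.7% and 42.1% of those in 1 control and 1 treated library. Regions lost in both MLL1-r lines numbered 85, which is 3.93% of those lost in MOLM13 and 2.99% of the MOLM13 regions lost in MV4-11. Of all MOLM13 regions 1.71% were lost in MV4-11, and of those in 1 control and 1 treated library 3.26%. Regions gained in both numbered 108, which is 2.03% of those gained in MOLM13 and 5.88% of the MOLM13 regions gained in MV4-11. Of all MOLM13 regions 1.104% were gained in MV4-11, and of those in 1 control and 1 treated library 2.13%, so both overlaps were near the share of regions without a direction. In the 36370 regions called in all 8 libraries of both lines, the difference between the MOLM13 shift and the MV4-11 shift passed the test in none (limma interaction term, smallest adjusted p = 0.531), and 2126 (5.85%) had an unadjusted p under 0.05. No shift was therefore shown to be particular to MOLM13.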

How the data were processed

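Bulk ATAC-Seq was read from paired-end libraries, and the deposited files are peak lists made by the authors, 1 per library. The submitters' processing notes list Bowtie 1.1.2 and the peak caller MACS2 2.1.0, after bcl2fastq 2.17 and Trimmomatic 0.33, with hg38 as the build. The study's methods name TopHat2 and diffReps instead. The handling of duplicates and of the Tn5 offset is not given in the sources used here. The deposited columns hold a score (10 times the -log10 q), a fold enrichment of the summit over the local background (a ratio), the -log10 p and -log10 q of the summit, and the summit offset. Fold enrichment is not normalized between libraries by the authors.

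Peaks of chromosomes 1 to 22 were merged over the 4 libraries. A promoter was 1 kb on either side of a start site, and a locus was a gene extended by 5 kb at both ends. Start sites of 32434 of 38151 protein-coding or lncRNA genes were used, 27195 from the RefSeq promoter table and 5239 from the gene end. Exons and introns were not resolved on hg38. Strength was tested with limma 3.58.1 (R 4.3.3) on quantile-normalized log2 fold enrichment, without a replicate term, with Benjamini-Hochberg adjustment over all regions and a threshold of 0.05. The script was tested on simulated data. A whole number of reads was taken as recovered when the Poisson -log10 p it implied lay within 0.001 of the listed value. A pseudocount of 1 was used. The interaction model added the 4 MV4-11 libraries. Tables were handled in Python 3.11.15.

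Members and the 23 gene lists were chosen with earlier results of these data known. Named genes were those of the MLL fusion target, HOXA, differentiation, core transcription factor and co-dependency lists, genes of other lists with a lost or gained region, the 5 lost and 5 gained promoter regions of strongest call, the 5 promoters lowest and highest by limma p, the 3 genes with most lost or gained regions, and the 5 regions of highest mean fold enrichment. KMT2A, MLLT10 and PTCH1, the genes named as markers with a called promoter, and the regions in 2 cell lines were named after their values were seen. Alternatives were equal numbers of peaks, a stricter q, another overlap, summit windows, chromosome X, other scalings, recovered reads, a replicate block and leaving out each library. Some listed genes are not reported here.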

Additional observations from a re-analysis of the deposited data

Results flagged for a closer look

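A pair of regions drew attention because they moved in opposite directions in the MLL1-r lines: each was gained in MOLM13 and lost in MV4-11. A region in SATB1, a chromatin organizer gene (chr3:18401552-18401894), was called in both treated MOLM13 libraries with fold enrichments of 3.87 and 4.27 (mean 4.07) and in neither control. In MV4-11 it was called in both controls at 3.26 and 4.93 and in neither treated library. A region in BID, a pro-apoptotic BH3 gene (chr22:17742597-17742865), was called in both treated MOLM13 libraries at 5.76 and 4.39 (mean 5.07) and in neither control, and in MV4-11 in both controls at 4.20 and 5.95 and in neither treated library. The difference between the lines was not tested at either region, since each lacked a value in the libraries without a peak. Over all genes, 136 regions gained in MOLM13 (2.55%) were lost in MV4-11, beside 1.71% of all regions and 3.26% of those called in 1 control and 1 treated library. Of regions lost in MOLM13, 31 (1.43%) were gained in MV4-11, beside 1.104% and 2.13%.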

How the results depend on the processing

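Of 383 values under alternatives, 359 were labelled as kept. Counts were judged by closeness to the main count, library measures by sign, and named promoters by direction and side of the threshold. Lost and gained regions numbered 934 and 3147 with -log10 q of at least 5, and ranged from 4158 to 24396 and from 8695 to 34404 when 1 library was left out. Lower regions at an unadjusted p under 0.05 numbered 1792 with recovered reads and 711 with the stricter q, where 25698 regions were tested; with 1 library left out lower regions ranged from 833 to 1243 and higher regions from 920 to 1613. The median fold enrichment of a library, treated minus control, was -0.095 with all peaks and 0.0839 with the stricter q. No region passed the adjusted limma test in either direction under any strength alternative run, and the smallest adjusted p ranged from 0.122 (limma trend) to 1 (without VTP50469 replicate 2); none passed the interaction test either, with 2068 to 2632 regions at an unadjusted p under 0.05 under its alternatives.

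Within 5 kb of start sites, the MLL fusion targets had 0 lost and 0 gained regions, the differentiation list 1 lost, and the core transcription factors 0 lost and 2 gained. With equal numbers of peaks, the MLL fusion targets had 7 gained, the HOXA cluster 2 lost, the differentiation list 1 lost and the core transcription factors 1 lost. Among 27 named promoters, 26 kept their direction under each alternative that gave a value, and MEIS1 reversed to 0.0056 without control replicate 1 and was -0.74 without control replicate 2, the ends of its range. No value was available for 10 promoters under the stricter q, and of these CDK6 and HOXA13 also gave none with equal numbers of peaks. The cause of these changes was not tested, beyond the fewer peaks or libraries that an alternative holds.

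Libraries of the 2 groups share replicate numbers, but nothing in the labels pairs them, and the deviations of same-numbered libraries correlated at 0.0403. With the replicate number as a block, 1243 lower and 1377 higher regions had an unadjusted p under 0.05, 2226 in the interaction test, and no call changed. Peak lists carry no total depth, and a peak listed in 1 library and not in another may lie just under the threshold there.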
